A study of Mus musculus with 7 samples.

Results

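The ephrin, Slit-Robo and netrin guidance genes are 38 of the 22180 named genes on the arrays. The rule takes them by gene symbol, as the Eph receptors and their ephrin ligands, Slit1 to Slit3, Robo1 to Robo3, Unc5a to Unc5d, Dcc, Neo1, the netrins and the netrin-G genes. It uses no measured value, although it was set with earlier results of these data known. Of them, 8 are ephrins, 13 Eph receptors, 3 Slits, 3 Robos, 3 netrins, 6 netrin receptors and 2 netrin-G genes. The EphB receptor gene Ephb2 and the netrin gene Ntn5, whose probe sets carry the name of a second gene, were not analysed here.

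Axons steer by reading cues on other cells and in the matrix. Ephrins stay bound to the membrane, and their contact with Eph receptor tyrosine kinases on another cell can signal into both cells. Slits are secreted and mostly repel axons through Robo receptors, whereas netrins attract through Dcc and repel through Unc5 receptors. Adult cortex keeps many of these genes on, where they are known for roles at dendritic spines and synapses.

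RNA on GFP-tagged ribosomes of medial prefrontal cortex was measured on 7 one-colour Affymetrix arrays, which limit the precision by their number. All mice combined a ribosome tag (TRAP) with an ArcCre transgene, so Cre follows the activity-regulated Arc gene, and tamoxifen was present during the experience, which labels cells active in that window. The cocaine-activated group (4 arrays, numbered 4 to 7) had 15 mg/kg cocaine for 2 days, and the shock-activated group (3 arrays, numbered 4 to 6) had 20 shocks of 2 s at 0.5 mA for 2 days. Both groups share the transgenes, the tamoxifen and the anti-GFP precipitation, and the labels do not say whether arrays stand for separate or pooled animals, so the spread between them may be technical.

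Values are deposited log2 expression values, and differences are cocaine minus shock. The comparison asks how ribosome-bound RNA differs between cells labelled during a rewarding and during an aversive experience. Across all genes limma called 0 at an adjusted p under 0.05, and 688 (3.10%) had an unadjusted p under 0.05. Cocaine array 6 stood apart, with a mean Euclidean distance to the other arrays of 37.2 over all genes against 27.5 to 29.6 for the rest. Excitatory cortical markers were present, with Slc17a7, a vesicular glutamate transporter gene, at 11.58 to 11.78 on the 7 arrays. Of that list 12 of 13 members lay above the dim level defined below. So did 12 of 12 astrocyte, 13 of 13 oligodendrocyte, 17 of 18 vascular and 9 of 11 microglia markers. Inhibitory and striatal neuron markers did so for 17 of 18 and 10 of 10. For Arc the cocaine mean was 9.51 ± 0.55 (SD, n = 4), beside 8.83 ± 0.91 (SD, n = 3) after shock.

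No guidance gene passed the test between cocaine-labelled and shock-labelled cells. The adjusted p values of the 38 genes ran from 0.938 to 0.999 (limma), 0 had an unadjusted p under 0.05 against 3.10% of all genes, and 0 had groups that did not overlap against 2.37% of all genes. In the cocaine group 16 of the 38 had the higher mean and 22 the lower, where 50.9% of all genes were higher. The median difference was -0.0091 on the log2 scale, beside 0.0016 over all genes, and the single differences ran from -0.14 for Ntn1 to 0.11 for Ntng1. Leaving out cocaine array 5 or 6 or shock array 5 or 6 turned the median positive, up to 0.010. Groups that did not overlap appeared for 1 gene without cocaine array 4, for 2 without shock array 4, for 2 without shock array 5 and for 4 without shock array 6, where 5.05%, 8.70%, 9.68% and 8.41% of all genes did so. The size of the difference, sign aside, had a median of 0.040 for the guidance genes and 0.051 for all genes.

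**Figure D1:**
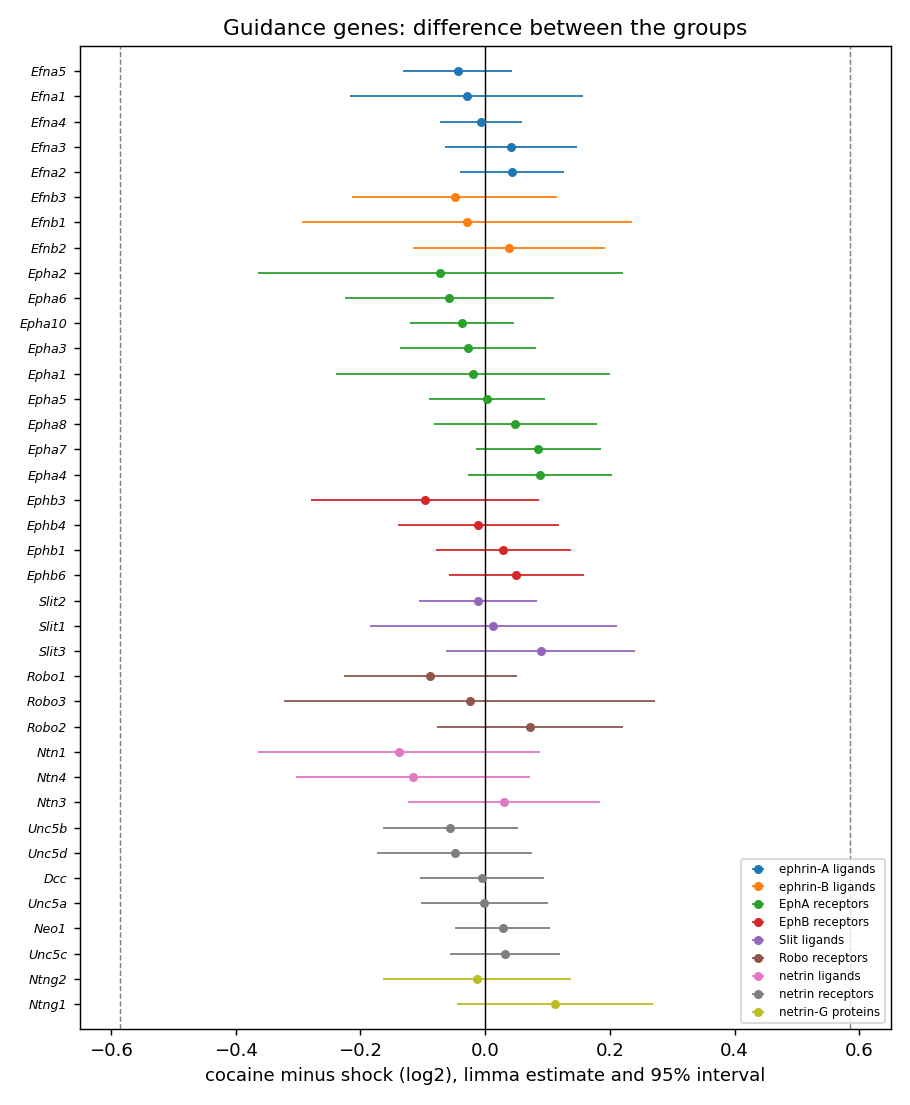
Each point is the cocaine minus shock difference of 1 gene on the log2 scale, and each bar its 95% interval from limma, coloured by class, with dashed lines at 1.5-fold in either direction. All 38 intervals cross 0 and lie between the dashed lines.

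The 95% intervals are per gene and unadjusted, and they rest on the spread between arrays, which may be technical. The 1.5-fold and 1.2-fold limits used here were chosen after the values were seen. All 38 of the 95% intervals lay within 1.5-fold, as did 94.2% of all genes. Within 1.2-fold lay 31 of the 38 (81.6%), against 61.7% of all genes and 75.2% of the 13733 genes above the dim level, and 25 to 36 of them did so without single arrays. The 7 wider ones were Efnb1, Epha2, Ephb3, Ntn1, Ntn4, Ntng1 and Robo3, and over all members the limits ran from a cocaine to shock ratio of 0.777 to 1.21. Under all 15 alternatives run, every interval of the genes in the fit stayed within 1.5-fold, with limits of 0.700 to 1.31. Immediate early genes, which neurons switch on with activity, were less tightly bound, with 7 of 24 within 1.5-fold. A p above the threshold does not show equal levels, but differences beyond these limits fall outside the 95% intervals.

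**Figure D2:**
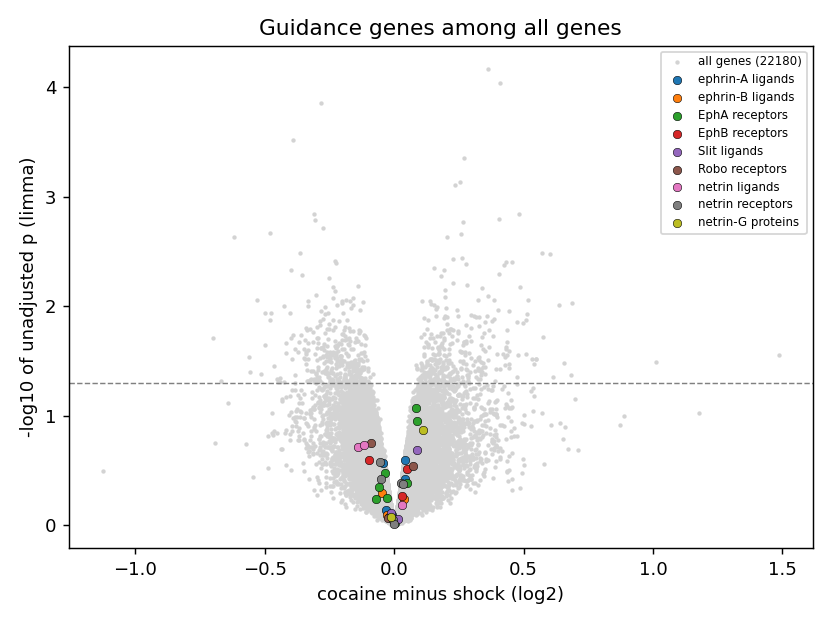
The plot sets the cocaine minus shock difference (log2) against -log10 of limma's unadjusted p for all 22180 genes in grey and for the guidance genes in colour by class. The dashed line marks a p of 0.05, and the 38 guidance genes lie below it, between -0.14 and 0.11.

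Most of the family lay above an array background level. No detection call was used, and background was set at 5.46, under which 95% of 1390 odorant and vomeronasal receptor genes had their mean. Above it lay 34 of the 38 guidance genes (89.5%) and 61.9% of all genes. How much of this RNA was on tagged ribosomes rather than carried over in the precipitate was not tested. The ephrin gene Efna4 (mean over 7 arrays 5.29), the receptor genes Epha1 (4.88) and Epha2 (4.67), and Robo3 (4.99), which is known from crossing axons of the embryo, lay under it and are called dim. In labelled tissue, fewer cells of a type and less RNA per cell cannot be told apart.

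The guidance genes varied from array to array about as much as all genes above the dim level. Their median within-group SD was 0.072, beside 0.093 over all genes and 0.077 over genes above the dim level. Exact ties were about as frequent as elsewhere: 26 of the 38 (68.4%) had an identical deposited value on at least 2 arrays and 13 (34.2%) on at least 3, against 66.9% and 40.9% of all genes. Ephb6 was 7.77 on 6 arrays, and Epha3, Epha10, Efna4 and Unc5c each shared 1 value on 5 arrays.

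Promoter sequences are shown because labelling depended on neuronal activity, and factors of that response bind short known motifs. RefSeq windows of GRCm38.p6 from 250 bases before to 50 after a start site matched 33 of the 38 genes, in 38 windows. The cyclic AMP response element (letters TGACGTCA, both strands) was in 1 window (2.63%), that of Epha2, in 2.83% of the 13802 windows of genes above the dim level and in 1.79% of all 32841 windows. The EGR motif (GCGTGGGCG, both strands) was in 1 window of Efna3, in 1.11% for genes above the dim level and in 0.612% of all windows. The AP-1 motif (TGANTCA, both strands) was in 0 of the 38, in 5.15% for genes above the dim level and in 7.81% of all. The windows below hold the 250 bases before the start site, 5′ to 3′ along the gene, with the motif in capitals. Epha2 is at chr4:141300971-141301220 on the plus strand, Efna3 at chr3:89322940-89323189 on the minus strand, and Epha7, shown as the member of smallest p, at chr4:28812881-28813130 on the plus strand. Capitals mark the response element in Epha2, the EGR motif read on the opposite strand in Efna3, and a GC box (GGGCGG, here on the opposite strand) in Epha7.
Epha2: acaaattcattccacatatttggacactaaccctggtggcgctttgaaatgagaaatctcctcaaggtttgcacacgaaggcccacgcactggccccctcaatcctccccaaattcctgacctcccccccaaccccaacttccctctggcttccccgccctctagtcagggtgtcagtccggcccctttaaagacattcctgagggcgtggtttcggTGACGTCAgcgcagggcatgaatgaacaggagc
Efna3: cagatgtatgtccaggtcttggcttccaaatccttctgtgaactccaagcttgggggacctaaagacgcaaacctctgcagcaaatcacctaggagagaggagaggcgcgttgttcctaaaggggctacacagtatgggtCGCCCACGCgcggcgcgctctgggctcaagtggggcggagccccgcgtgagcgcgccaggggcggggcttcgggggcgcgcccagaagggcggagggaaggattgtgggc
Epha7: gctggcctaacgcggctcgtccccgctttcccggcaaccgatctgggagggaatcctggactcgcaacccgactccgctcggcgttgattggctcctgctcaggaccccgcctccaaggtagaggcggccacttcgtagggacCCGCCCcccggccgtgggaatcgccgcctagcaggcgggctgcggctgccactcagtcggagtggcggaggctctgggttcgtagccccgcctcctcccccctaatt

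The 38 windows held a median of 21.5 CG dinucleotides, close to the 19 in windows of genes above the dim level, where all windows had 7. More than 10 were found in 34 of the 38 (89.5%), in 72.9% of the windows of genes above the dim level and in 41.4% of all. The others were both windows of Robo2 (5 and 9), that of Ntng2 (6) and that of Epha2 (10). The GC box was in 28 of the 38 windows (73.7%), against 59.6% for genes above the dim level. These are letter matches and show no binding. Neither holder of an activity motif passed the test between the groups, but no gene did, so this says nothing about the motifs. Efna3 had a difference of 0.042 (95% interval -0.064 to 0.15), and the dim gene Epha2 one of -0.072 (-0.36 to 0.22), which was 0.041 without cocaine array 6.

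Values by array follow in the order of arrays 4, 5, 6 and 7 for cocaine and 4, 5 and 6 for shock. Ephrin-A ligands, held on the membrane by a lipid anchor, numbered 5, of which 2 had a higher and 3 a lower mean in the cocaine group, with 0 past an unadjusted p of 0.05. Efna2 (probe set 17235243) was 7.72, 7.70, 7.70 and 7.75 in the cocaine arrays and 7.70, 7.62 and 7.70 in the shock arrays. Shock array 5 was the lowest, and the remaining values of the groups overlapped. The difference was 0.043 (SE 0.035, limma unadjusted p = 0.255). Efna5, whose product is known for mapping projections between brain areas, was 7.40, 7.32, 7.34 and 7.39 against 7.44, 7.39 and 7.39. Its difference of -0.044 (SE 0.037) had a limma unadjusted p of 0.268, and cocaine array 4 lay above shock arrays 5 and 6. Efna3 ran from 9.60 to 9.73 in the cocaine group and from 9.56 to 9.65 in the shock group. Efna1 differed by -0.030 and the dim gene Efna4 by -0.0070.

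Ephrin-B ligands span the membrane, and their inner tail can signal back into the cell that bears them. Efnb3 was 9.03, 8.94, 8.77 and 8.98 in the cocaine arrays and 9.04, 8.92 and 8.98 in the shock arrays. Cocaine array 6 was the lowest, and the difference of -0.049 (SE 0.069, limma unadjusted p = 0.502) was 0.0048 without it. Efnb2, known both at synapses and in arterial endothelium, was 9.07, 9.11, 9.05 and 9.16 against 9.19, 9.07 and 8.93, so the 3 shock arrays spanned the whole cocaine range. Its difference was 0.039 (SE 0.065), or -0.027 without shock array 6. Efnb1 was 7.57, 7.60, 7.30 and 7.66 against 7.42, 7.75 and 7.51, with both groups spread widely and a difference of -0.029 (SE 0.11). Without shock array 5, its highest value, the difference was 0.066.

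EphA receptors held the pair of smallest p values among all members. Epha7, whose product is known to restrain dendrite growth and to shape cortical connections, was 9.0, 9.01, 9.05 and 9.01 in the cocaine arrays and 8.94, 9.0 and 8.86 in the shock arrays. Shock array 5 had the same value as cocaine array 4, and all other cocaine values lay above all shock values. The means were 9.02 ± 0.024 (SD, n = 4) and 8.93 ± 0.071 (SD, n = 3), and the difference was 0.085 (SE 0.042). The unadjusted p by limma was 0.0850 and the adjusted p 0.938. Without shock array 5 the difference was 0.12 with an unadjusted p of 0.0260 (limma), the one time a guidance gene passed 0.05 under any setting. Without shock array 6 the difference was 0.049 with an unadjusted p of 0.245 (limma).

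Epha4, a receptor for ephrins of both classes that is known on dendritic spines, was 9.88, 9.89, 10.01 and 9.99 in the cocaine arrays. In the shock arrays it was 9.81, 9.84 and 9.91. Shock array 6 lay above cocaine arrays 4 and 5, and the other shock values lay below all cocaine values. The difference was 0.088 (SE 0.048, limma unadjusted p = 0.113), and leaving out single arrays gave 0.065 to 0.12. Epha5 and Epha6, further neuronal receptors, had differences of 0.0029 (95% interval -0.090 to 0.096) and -0.057 (-0.23 to 0.11). Epha6 differed by -0.13 without shock array 6 and by -0.0059 without shock array 5.

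The remaining EphA genes had differences from -0.072 to 0.048. Epha10, whose kinase domain lacks catalytic activity, stayed at 6.95 on 5 arrays, with 6.92 on cocaine array 5 and 7.04 on shock array 5, and differed by -0.037. Epha3 had 1 value, 6.85, on all 4 cocaine arrays and on shock array 4, and differed by -0.028. Epha8 differed by 0.048, which was 0.0045 without cocaine array 4, its highest array. The dim gene Epha1 differed by -0.019, with 5.10 on cocaine array 6 as its highest value.

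EphB receptors bind the ephrin-B class and are known for organising excitatory synapses. Of the 4 measured, 2 had a higher and 2 a lower mean in the cocaine group. Ephb3 was 6.53, 6.55, 6.29 and 6.54 in the cocaine arrays and 6.52, 6.67 and 6.54 in the shock arrays. Its difference of -0.096 (SE 0.077, limma unadjusted p = 0.253) came with a low value on cocaine array 6, and was -0.034 without that array. Ephb6, which also lacks kinase activity, was 7.77 on all arrays except shock array 4, at 7.62. The difference was 0.050 (SE 0.045), and the group means were equal without that array. Ephb1 differed by 0.029 and Ephb4, known from venous endothelium, by -0.011. A second probe set of Ephb1, with a mean of 5.29 under the dim level, differed by 0.078.

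**Figure D3:**
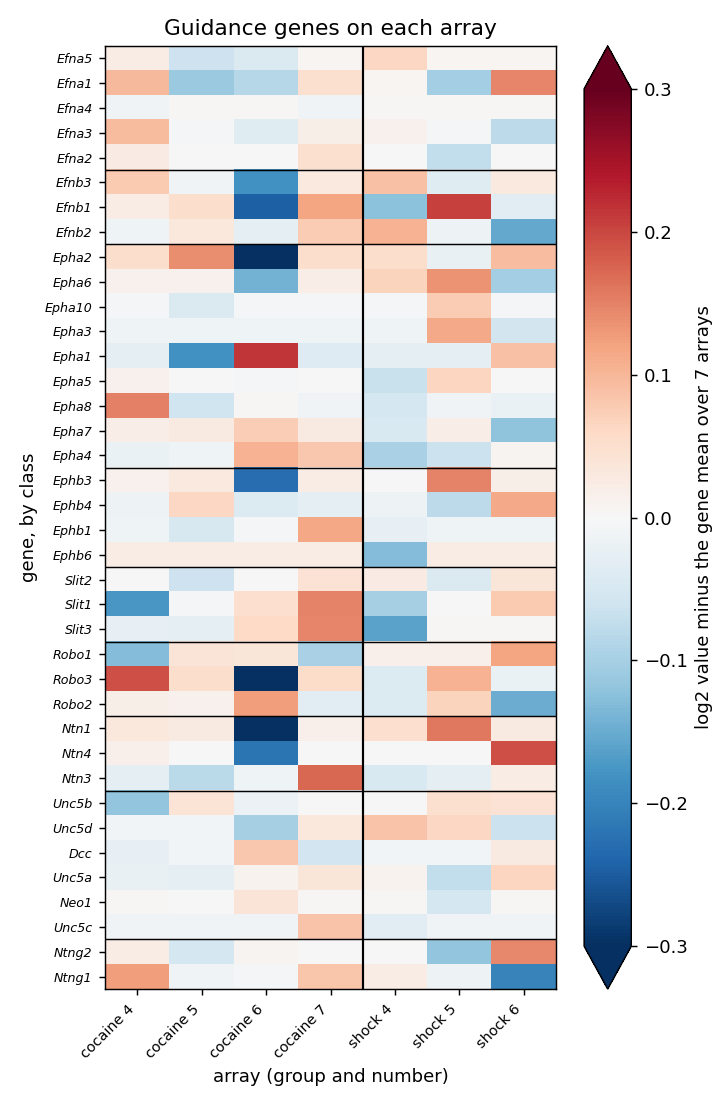
Colours give each guidance gene's log2 value minus its mean over the 7 arrays (columns, by group and number), with genes ordered by class and a scale that ends at 0.3 in both directions. Most cells are pale, and the darkest low values, for Epha2, Robo3 and Ntn1, are on cocaine array 6.

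Slit ligands showed no shared direction. Slit3 was 9.34, 9.33, 9.42 and 9.51 in the cocaine arrays and 9.20, 9.37 and 9.37 in the shock arrays. Shock array 4 was the lowest and cocaine array 7 the highest, and the others overlapped. Its difference was 0.089 (SE 0.064, limma unadjusted p = 0.207), or 0.034 without shock array 4. Slit2 was 8.28, 8.21, 8.27 and 8.32 against 8.30, 8.23 and 8.31, so that both groups covered nearly the same range, and differed by -0.012 (SE 0.040). Slit1 was 8.47, 8.65, 8.70 and 8.80 against 8.55, 8.65 and 8.73, with a difference of 0.013 (SE 0.083). Here the shock arrays lay inside the cocaine range.

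The receptor genes Robo1 and Robo2, whose products bind Slits, had differences of opposite sign. Robo1 was 8.36, 8.53, 8.53 and 8.39 in the cocaine arrays and 8.51, 8.51 and 8.61 in the shock arrays. Cocaine arrays 4 and 7 were the lowest and shock array 6 the highest, while cocaine arrays 5 and 6 lay between the shock values. The difference was -0.088 (SE 0.058, limma unadjusted p = 0.178). Robo2 was 9.79, 9.78, 9.89 and 9.73 against 9.73, 9.83 and 9.62, with shock array 5 above 3 of the cocaine arrays. Its difference was 0.072 (SE 0.063, limma unadjusted p = 0.288), from 0.018 without shock array 6 to 0.13 without shock array 5. Whether the Robo1 and Robo2 differences differ from each other was not tested. The dim gene Robo3 was 4.64 on cocaine array 6 and 4.95 to 5.18 on the other arrays, and its difference of -0.025 was 0.086 without that array.

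The netrin ligand genes Ntn1 and Ntn4 had the most negative differences among the guidance genes with the 7 arrays weighted equally, whereas with array weights Robo1 (-0.092) lay below Ntn4 (-0.069). Ntn1, the secreted cue that attracts axons through Dcc, was 6.02, 6.02, 5.68 and 6.01 in the cocaine arrays and 6.04, 6.15 and 6.02 in the shock arrays. Apart from cocaine array 6 all values lay within 6.01 to 6.15, and cocaine array 5 and shock array 6 had the same value. The difference of -0.14 (SE 0.095, limma unadjusted p = 0.191) was -0.054 without cocaine array 6. Ntn4, a netrin of basement membranes and vessels, was 6.0, 5.99, 5.77 and 5.99 against 5.99, 5.99 and 6.18. Its difference of -0.12 (SE 0.079, limma unadjusted p = 0.186) rested on 2 arrays, the low cocaine array 6 and the high shock array 6. It was -0.059 without the former and -0.051 without the latter. Ntn3 was 6.85, 6.80, 6.87 and 7.06 against 6.84, 6.85 and 6.91, and differed by 0.030.

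Netrin receptors had 6 of 6 intervals within 1.2-fold and a median within-group SD of 0.049. Ephrin-A genes had 5 of 5 within it and a lower SD of 0.037, and Slit genes 3 of 3. All 6 netrin receptors had an identical value on at least 2 arrays. Dcc, the attractive receptor, was 8.35, 8.37, 8.46 and 8.32 in the cocaine arrays and 8.37, 8.37 and 8.41 in the shock arrays, a difference of -0.0055 (95% interval -0.10 to 0.094). Neo1, which encodes neogenin, a relative of Dcc, was 9.22, 9.22, 9.25 and 9.22 against 9.22, 9.16 and 9.22. Its groups overlapped and differed by 0.028. The repulsive receptors Unc5a and Unc5c differed by -0.0013 and 0.032.

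Unc5b, a receptor also known in endothelium, was 6.27, 6.43, 6.37 and 6.39 against 6.39, 6.44 and 6.43, with a difference of -0.056 (SE 0.046, limma unadjusted p = 0.263). Cocaine array 4 was the lowest, and cocaine array 5 lay between the shock values. Unc5d, known from upper-layer cortical neurons, was 9.50, 9.50, 9.41 and 9.54 in the cocaine arrays and 9.60, 9.57 and 9.45 in the shock arrays. Shock array 6 lay within the cocaine range and the other shock arrays above it, for a difference of -0.049 (SE 0.052), which was -0.096 without shock array 6.

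Netrin-G proteins do not bind the classical netrin receptors and instead pair with netrin-G ligands across synapses. Ntng1 was 8.75, 8.61, 8.61 and 8.71 in the cocaine arrays and 8.64, 8.61 and 8.42 in the shock arrays. Shock array 6 was the lowest, and shock array 5 (8.6071) lay just under the lowest cocaine value (8.6118), so that only shock array 4 lay among the cocaine values. Without shock array 4 the groups did not overlap. The means were 8.67 ± 0.068 (SD, n = 4) and 8.56 ± 0.12 (SD, n = 3). The difference of 0.11 (SE 0.066, limma unadjusted p = 0.134) was the most positive among the guidance genes in this fit, and 0.045 without shock array 6. Ntng2 was 6.82, 6.75, 6.81 and 6.80 against 6.80, 6.68 and 6.94, with a difference of -0.013 (SE 0.063). Lrrc4c, which encodes the ligand of the Ntng1 product, was 9.02 to 9.13 in the cocaine arrays and 8.90 to 9.04 in the shock arrays, a difference of 0.076 (limma unadjusted p = 0.160).

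**Figure D4:**
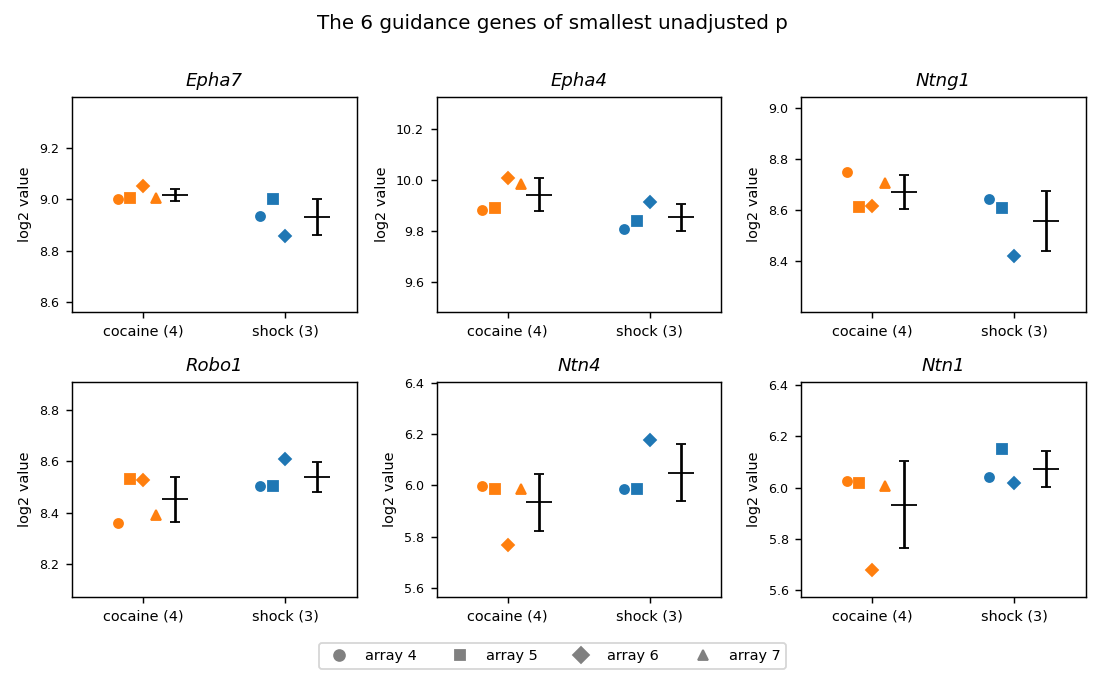
Each panel plots the log2 values of 1 of the 6 guidance genes of smallest unadjusted p on the 4 cocaine arrays (orange) and the 3 shock arrays (blue), with marker shape for the array number and bars for the mean ± SD. The groups overlap or share a value in every panel, and the low values of Ntn4 and Ntn1 are those of cocaine array 6 (5.77 and 5.68).

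Cocaine array 6 was the single highest or lowest array for 15 of the 38 guidance genes (39.5%), close to its share of 40.4% over all genes. It lay more than 0.2 from the mean of the other arrays for 8 of the 38, against 0 to 2 on each other array, and for 22.8% of all genes. The mean deviation of the 38 genes from their own means was -0.043 on cocaine array 6, against -0.011 to 0.032 on the other arrays. For the 3 netrins it was -0.18, and for the 3 ephrin-B genes -0.15. Without that array 20 of the 38 genes had the higher mean in the cocaine group, and 0 had an unadjusted p under 0.05.

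Genes that act with the guidance receptors were read from 3 lists. Of 31 measured partners of Eph and ephrin signalling, 15 had a higher and 16 a lower mean in the cocaine group, with a median difference of -0.0053, and 1 had an unadjusted p under 0.05 against 3.10% of all genes. This was Ptprb, a receptor phosphatase known mainly from endothelium, at 6.94, 6.96, 6.98 and 6.83 in the cocaine arrays and 7.36, 7.11 and 7.51 in the shock arrays. All shock values lay above all cocaine values, and the difference was -0.40 (SE 0.096). Its limma unadjusted p was 0.00469 and its adjusted p 0.938. The protease gene Adam10, which can cut ephrins from the membrane, differed by -0.12 (limma unadjusted p = 0.0511, and 0.0120 to 0.159 without single arrays). Arhgef15, an exchange factor gene that acts below EphB2, differed by -0.099 (limma unadjusted p = 0.0590, and 0.0179 to 0.170 without single arrays).

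Of 20 measured partners of Slit and Robo, 9 had a higher and 11 a lower mean, with a median of -0.0053 and 0 at an unadjusted p under 0.05. Srgap2, a Robo-binding GTPase activator gene that also shapes spines, differed by -0.12 (limma unadjusted p = 0.0547, and 0.00783 to 0.174 without single arrays), and Enah, an actin regulator gene, by -0.082. Groups that did not overlap were found for Gpc1 (difference -0.0047) and Nell2 (0.042), against 2.37% of all genes. Both are named after their values were seen, with limma unadjusted p values of 0.870 and 0.207. Gpc1 had 1 value, 8.6092, on all 4 cocaine arrays, and 8.6107 to 8.6156 on the shock arrays. Robo4, the endothelial Robo outside the 38 genes, was 5.61, 5.61, 5.50 and 5.50 against 5.66, 5.61 and 5.61, a difference of -0.071. Of 21 measured netrin partners, 12 had a higher and 9 a lower mean, with a median of 0.024 and 0 at an unadjusted p under 0.05. The cytoskeletal gene Ablim1 differed by -0.13 and the dim gene Trim67 by 0.19, which was 0.36 (limma unadjusted p = 0.000801) without shock array 6 and 0.063 without shock array 4.

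Several guidance genes are also used by vessels. All 18 vascular markers had a lower mean in the cocaine group, with a median of -0.27, and 1 of the 18 was dim. Of them 5 had an unadjusted p under 0.05 (limma) and 3 had groups that did not overlap, against 3.10% and 2.37% of all genes. Its mean deviation was -0.36 to 0.044 on the cocaine arrays and 0.047 to 0.24 on the shock arrays, highest on shock array 6. The genes described above as vascular or endothelial had differences of -0.40 for Ptprb, -0.12 for Ntn4, -0.071 for Robo4, -0.056 for Unc5b, -0.011 for Ephb4 and 0.039 for Efnb2. Other named genes, Arhgef15 among them, were not sorted by vascular use. The part of vascular cells in these values was not tested. Astrocyte markers had a lower mean in 12 of 12 members (median -0.14), with a mean deviation of -0.18 to 0.11 on the cocaine arrays and -0.019 to 0.14 on the shock arrays. Immediate early genes had a higher mean in 24 of 24 (median 0.39), with -0.23 to 0.47 against -0.55 to 0.37, and their part was not tested either. Striatal neuron markers, which were not checked for expression in cortical cells, had a higher mean in 9 of 10 (median 0.13). Drd1, Rarb and Pde10a, named after their values were seen, had an unadjusted p under 0.05 (limma) and groups that did not overlap. The mean deviation of that list was -0.019 to 0.19 on the cocaine arrays, highest on cocaine array 6, and -0.10 to -0.040 on the shock arrays, and its part was not tested.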

How the data were processed

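The authors deposited log2 expression values of 41345 probe sets, per the values' range of 1.12 to 13.44. Transcriptome Analysis Console is the tool listed, per the submitters' processing notes, and the normalization is not given in the sources used here. Quartiles were nearly equal on the 7 arrays, so differences are relative to other probe sets. The platform annotation gave 1 symbol to 23521 probe sets. Of each gene the probe set of highest mean was kept, which left 22180 genes, and all 38 members' Entrez identifiers were found in the RefSeq table of GRCm38.p6.

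Limma 3.58.1 in R 4.3.3 (lmFit, eBayes, two-sided, no covariate) was fitted over all genes with Benjamini-Hochberg adjustment at 0.05. The scripts were tested on simulated data. Recomputing covered the calls over all genes, the guidance genes' counts, median, differences and intervals, and the single partner genes named by smallest p. Alternatives centred the arrays on their medians, quantile-normalized or weighted them, or dropped them one at a time. Further alternatives left out dim genes, averaged probe sets, used other moderation or none, or used a replicate block on the title number. Other results were not recomputed, among them the counts and medians of the partner and marker lists. The members and lists were chosen with earlier results of these data known, and the 1.5-fold and 1.2-fold limits for intervals were chosen after the values were seen. All members are named. Values by array were given for the 2 of smallest p in each class, for whole small classes and for some others, such as Dcc and Neo1. Up to 3 genes per partner list were named by smallest p, and Gpc1 and Nell2 were added after their values were seen.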

Additional observations from a re-analysis of the deposited data

Results flagged for a closer look

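Among the 4 cocaine arrays, 1 array stood far from the others for 10 of the 38 guidance genes, by the gap to the nearest array as a share of the group's range, which passed Dixon's 95% limit for 4 samples. That is 26.3% of the members, and 21.3% of all 22180 genes passed the same limit. With cocaine array 6 as the array apart it was 18.4% of the members and 8.99% of all genes, a difference that was not tested. Chance passes about 1 in 20 groups without ties. Cocaine array 6 was lowest for Epha2 (0.83), Epha6 (0.9561), Ephb3 (0.9318), Ntn1 (0.9505) and Ntn4 (0.9391) and highest for Epha7 (0.8821) and Neo1 (0.9688). Cocaine array 4 was highest for Epha5 (0.9798), cocaine array 5 lowest for Epha10 (1.0), and cocaine array 7 highest for Unc5c (1.0). The gap was 0.42 for Epha2, 0.33 for Ntn1, 0.24 for Ephb3, 0.22 for Ntn4 and 0.16 for Epha6, but 0.014 to 0.096 for the other 5 genes. For Epha10 and Unc5c the other 3 cocaine arrays had 1 identical value, and Epha2, Epha5, Epha6 and Ntn4 each had the same value on 2 of the 4. This check needs 4 arrays, so it was not run on the shock arrays.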

How the results depend on the processing

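No gene passed an adjusted p of 0.05 under any alternative (limma, smallest adjusted p of a guidance gene 0.871), and 419 to 915 of all genes had an unadjusted p under 0.05. Without single arrays, 0 to 1 guidance genes had an unadjusted p under 0.05, 0 to 4 had groups that did not overlap, and the median difference was -0.018 to 0.010. Quantile normalization gave 1 gene with no overlap (Ntn1) and median centring 1 (Epha7). The median was 0.0022 after median centring and 0.0047 with array weights. Of the 38 differences 19 kept their sign throughout, and that of Ephb6 was 0 without shock array 4. The other 18, all small, turned as follows, and the cause was not tested. Without single arrays the ranges were -0.033 to 0.013 for Dcc, -0.090 to 0.036 for Efna1, -0.098 to 0.066 for Efnb1, -0.027 to 0.10 for Efnb2, -0.082 to 0.0048 for Efnb3, -0.094 to 0.039 for Epha1, -0.13 to 0.041 for Epha2, -0.063 to 0.022 for Epha3 and -0.030 to 0.036 for Epha5. They were -0.0048 to 0.049 for Ephb1, -0.054 to 0.042 for Ephb4, -0.023 to 0.061 for Ntn3, -0.077 to 0.054 for Ntng2, -0.093 to 0.086 for Robo3, -0.035 to 0.073 for Slit1, -0.037 to 0.0076 for Slit2 and -0.038 to 0.031 for Unc5a. Quantile normalization gave 0.0053 for Efna4 and 0.0016 for Ephb4. Median centring gave 0.0057 for Dcc, 0.0043 for Efna4, 9.5e-05 for Ephb4 and 0.010 for Unc5a. Array weights gave 0.016 for Efnb1, 0.0078 for Ephb4, 0.032 for Robo3 and 0.0040 for Unc5a. The replicate block, on the title number, gave 0.013 for Dcc, -0.0048 for Ephb1, -0.023 for Ntn3 and -0.035 for Slit1. No shock array is numbered 7, so the block differences equal those without cocaine array 7 and are not separate sign changes. The block fit called 0 guidance genes at a limma unadjusted p under 0.05 (915 of all genes, against 688). Deviations of same-numbered arrays correlated at 0.13, 0.064 and 0.16 over all genes, and those of unlike-numbered arrays among 4 to 6 at -0.097 to -0.019. Shock array 5 correlated more with cocaine array 7 (0.090) than with cocaine array 5 (0.064). Neither the labels nor these correlations settle whether the numbers pair the arrays, and the main fit treats the arrays as unpaired. The number of arrays and the ties limit the precision. Of the 4 dim genes, Epha1, Epha2 and Robo3 had SEs of 0.092, 0.12 and 0.12. Efna4, with 1 value on 5 arrays, had an SE of 0.028, so ties can make an interval look narrow.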
